A study of Homo sapiens with 8 samples.

Results

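The 8 noradrenergic core transcription factor genes PHOX2A, HAND2, GATA2, GATA3, ISL1, TFAP2B, TBX2 and INSM2 were followed across 4 human neuroblastoma cell lines treated with ciclopirox. They were chosen by symbol, with earlier results of these data known. All 8 were on the array, among 19774 genes with a probe set annotated to a single symbol, and all 8 reached the signal level required for testing. They had 17 probe sets in total, of which 16 reached that level, and each gene was read from its probe set with the highest mean over all 8 arrays. The remaining probe sets of GATA2, GATA3, TFAP2B and TBX2 were used as a check. PHOX2A, HAND2, ISL1 and INSM2 had 1 probe set each.

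Neuroblastoma is a childhood tumour of the sympathetic nervous system. SKNAS, NB1691, SKNBE2 and SKNAS/shHIF1a cells received either vehicle or ciclopirox, an iron-binding antifungal drug, at 2.5 µM for 48 h in RPMI medium with serum. In all, 1 array was hybridised for each line and treatment. SKNAS/shHIF1a is a derivative of SKNAS in which HIF1A, whose protein accumulates at low oxygen, is stably knocked down. The labels class SKNAS as c-Myc and the other 3 lines, the derivative included, as N-Myc. The title of the series concerns inhibition of the histone demethylase JMJD2B. No vector-control line is among the 8 samples, and the labels do not say whether the derivative is a clone or a pool, so the knockdown and other differences between the derivative and its parent cannot be told apart. The arrays have no replicate for a line under one treatment. Every p-value therefore rests on how unequally the lines changed with ciclopirox, or on the spread between line means, and not on repeated cultures.

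Sympathetic neuroblasts and most neuroblastomas hold their identity through a small set of transcription factors that bind their own and each other's enhancers, the noradrenergic core regulatory circuitry. PHOX2A and ISL1 are homeodomain proteins of sympathetic neuron development, GATA2 and GATA3 are zinc finger proteins, and HAND2 is a basic helix-loop-helix protein that binds E-boxes. TFAP2B is an AP-2 factor of the neural crest lineage, TBX2 is a T-box factor, and INSM2 is a zinc finger protein related to the neuroendocrine factor INSM1. Neuroblastoma cells can also take a mesenchymal state in which this set is low and factors such as PRRX1 and the AP-1 family are high.

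In the RefSeq annotation of GRCh38.p14, PHOX2A lies at chr11:72239077-72244176 and ISL1 at chr5:51383448-51394730. GATA2 lies at chr3:128479422-128493201 and GATA3 at chr10:8045333-8075198. HAND2 lies at chr4:173526091-173530229, TFAP2B at chr6:50818355-50847619, TBX2 at chr17:61399843-61409466 and INSM2 at chr14:35534164-35537054. Each of these genes is on a chromosome of its own.

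The 250 bases before the transcription start are shown for 5 of the 7 genes with a RefSeq promoter entry: TFAP2B, INSM2 and GATA2, the genes called lower in the derivative, and ISL1 and HAND2, the genes lower under ciclopirox in all 4 lines. Sequences are from RefSeq on GRCh38.p14, 5′ to 3′ on the strand of the gene. Capitals mark every match, on either strand, to GATAA (the core of a GATA site), CANNTG (the E-box of helix-loop-helix proteins), ACGTG or GCGTG (the cores of hypoxia response elements) and TAATTA (a homeodomain core). The windows are chr6:50818621-50818870 (plus strand) for TFAP2B, chr14:35533914-35534163 (plus) for INSM2, chr3:128493202-128493451 (minus) for GATA2, chr5:51383198-51383447 (plus) for ISL1 and chr4:173530230-173530479 (minus) for HAND2.
TFAP2B promoter: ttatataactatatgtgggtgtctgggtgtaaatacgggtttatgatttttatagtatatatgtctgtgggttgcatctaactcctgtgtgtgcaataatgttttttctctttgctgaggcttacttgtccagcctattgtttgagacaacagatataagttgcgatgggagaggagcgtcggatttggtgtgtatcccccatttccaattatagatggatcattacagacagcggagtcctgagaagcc
INSM2 promoter: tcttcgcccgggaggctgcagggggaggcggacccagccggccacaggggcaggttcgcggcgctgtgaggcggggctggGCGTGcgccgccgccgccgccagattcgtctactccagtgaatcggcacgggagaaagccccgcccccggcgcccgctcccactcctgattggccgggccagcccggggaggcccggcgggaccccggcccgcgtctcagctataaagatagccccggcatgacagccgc
GATA2 promoter: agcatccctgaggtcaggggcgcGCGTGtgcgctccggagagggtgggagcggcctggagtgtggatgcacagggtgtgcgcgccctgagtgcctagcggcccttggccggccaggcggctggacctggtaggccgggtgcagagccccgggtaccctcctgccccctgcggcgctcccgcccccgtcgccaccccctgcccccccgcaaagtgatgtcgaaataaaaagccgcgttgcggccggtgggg
ISL1 promoter: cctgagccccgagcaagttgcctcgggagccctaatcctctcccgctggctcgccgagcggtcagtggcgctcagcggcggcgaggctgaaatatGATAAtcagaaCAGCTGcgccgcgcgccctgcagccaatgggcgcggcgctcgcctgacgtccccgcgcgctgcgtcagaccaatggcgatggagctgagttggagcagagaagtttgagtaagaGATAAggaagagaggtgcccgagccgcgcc
HAND2 promoter: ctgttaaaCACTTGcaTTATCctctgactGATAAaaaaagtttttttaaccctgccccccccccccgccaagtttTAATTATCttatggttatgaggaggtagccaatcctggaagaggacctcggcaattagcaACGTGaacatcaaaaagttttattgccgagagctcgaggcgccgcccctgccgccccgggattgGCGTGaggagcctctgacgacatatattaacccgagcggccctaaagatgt
The TFAP2B window held none of the 5 motifs and had a GC content of 40.8%, against a median of 58.0% over all 35116 promoters of the table. Its start is not the outermost start of the gene, and the whole window lies inside the gene as annotated. The INSM2 and GATA2 windows had 1 GCGTG each and GC contents of 74.8% and 72.8%. The ISL1 window held 2 GATAA matches and 1 CANNTG. The HAND2 window held all 5 motifs, with GATAA at 3 places, and its TAATTA overlaps a GATAA match on the opposite strand. The PHOX2A and GATA3 windows, not printed, held none. GATA3 had 6 promoter entries and GATA2 had 2, and only the outermost entry of each was searched. The shares over all promoters can count several entries of a gene. GATAA was in 2 of the 7 windows and in 20.4% of all promoters, CANNTG in 2 of 7 and 61.8%, ACGTG in 1 of 7 and 18.5%, GCGTG in 3 of 7 and 32.2%, and TAATTA in 1 of 7 and 4.35%. These matches describe letters in a short window and show no binding.

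Levels are given as log2 signals of the deposited RMA values, a quantile-normalised summary of the probes of a probe set. The level required for testing was 3.21, the 40th percentile, and the median of each array was between 3.47 and 3.52. Signals of different probe sets do not compare the abundance of different genes. In these bulk samples fewer cells expressing a gene and less RNA per cell cannot be told apart.

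The homeodomain genes were highest in NB1691 and SKNBE2, the lines with high MYCN signal. PHOX2A, which acts in the specification of noradrenergic neurons, had vehicle and ciclopirox signals of 10.18 and 9.97 in NB1691 and of 9.94 and 10.00 in SKNBE2. In SKNAS its signals were 7.81 and 7.49, and in SKNAS/shHIF1a 7.34 and 6.93. The 4 arrays of NB1691 and SKNBE2 were all above the 4 SKNAS-derived arrays, with a gap of over 2 log2 units between the groups. For ISL1, a LIM-homeodomain factor of sympathetic and motor neurons, the same groups of arrays did not overlap. Its vehicle and ciclopirox signals were 11.08 and 10.49 in NB1691, 10.84 and 10.72 in SKNBE2, 8.58 and 7.5 in SKNAS, and 8.17 and 6.33 in the derivative.

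GATA3, a GATA factor needed for the survival of sympathetic neurons, had vehicle and ciclopirox signals of 12.07 and 12.02 in NB1691 and of 11.57 and 11.69 in SKNBE2. They were 11.10 and 10.44 in SKNAS and 10.68 and 9.74 in the derivative, so the groups did not overlap but were close. GATA2, its paralog, had signals of 10.78 and 10.21 in NB1691, 10.62 and 10.80 in SKNBE2, 9.75 and 9.35 in SKNAS, and 7.67 and 7.43 in the derivative. The derivative's arrays stood apart from the other 6, and those of SKNAS lay between.

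TFAP2B and INSM2 were high in 3 lines and near the bottom of the scale in the derivative. TFAP2B had vehicle and ciclopirox signals of 11.53 and 10.33 in NB1691, 10.99 and 10.73 in SKNBE2, 9.62 and 7.96 in SKNAS, and 2.65 and 2.65 in SKNAS/shHIF1a. INSM2 had signals of 10.03 and 9.46 in NB1691, 11.34 and 11.38 in SKNBE2, 9.87 and 8.66 in SKNAS, and 3.04 and 2.57 in SKNAS/shHIF1a. All 4 derivative values lay under the 3.21 level.

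HAND2 and TBX2 varied less between lines. The only HAND2 probe set had a low mean signal of 4.64 over the 8 arrays, while that of TBX2 was 9.16. The part of low signal in the small HAND2 differences was not tested. HAND2 had vehicle and ciclopirox signals of 5.30 and 4.63 in NB1691, 4.94 and 4.66 in SKNBE2, 4.84 and 4.23 in SKNAS, and 4.56 and 3.99 in the derivative, and the lines overlapped. TBX2 had signals of 8.51 and 9.28 in NB1691, 8.96 and 9.50 in SKNBE2, 9.21 and 9.01 in SKNAS, and 9.21 and 9.63 in the derivative, with every line overlapping another. TBX2 was the gene with no lower mean over the SKNAS-derived lines, at 9.26 against 9.06 over NB1691 and SKNBE2. Under ciclopirox, though, SKNAS lay below both NB1691 and SKNBE2.

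**Figure D1:**
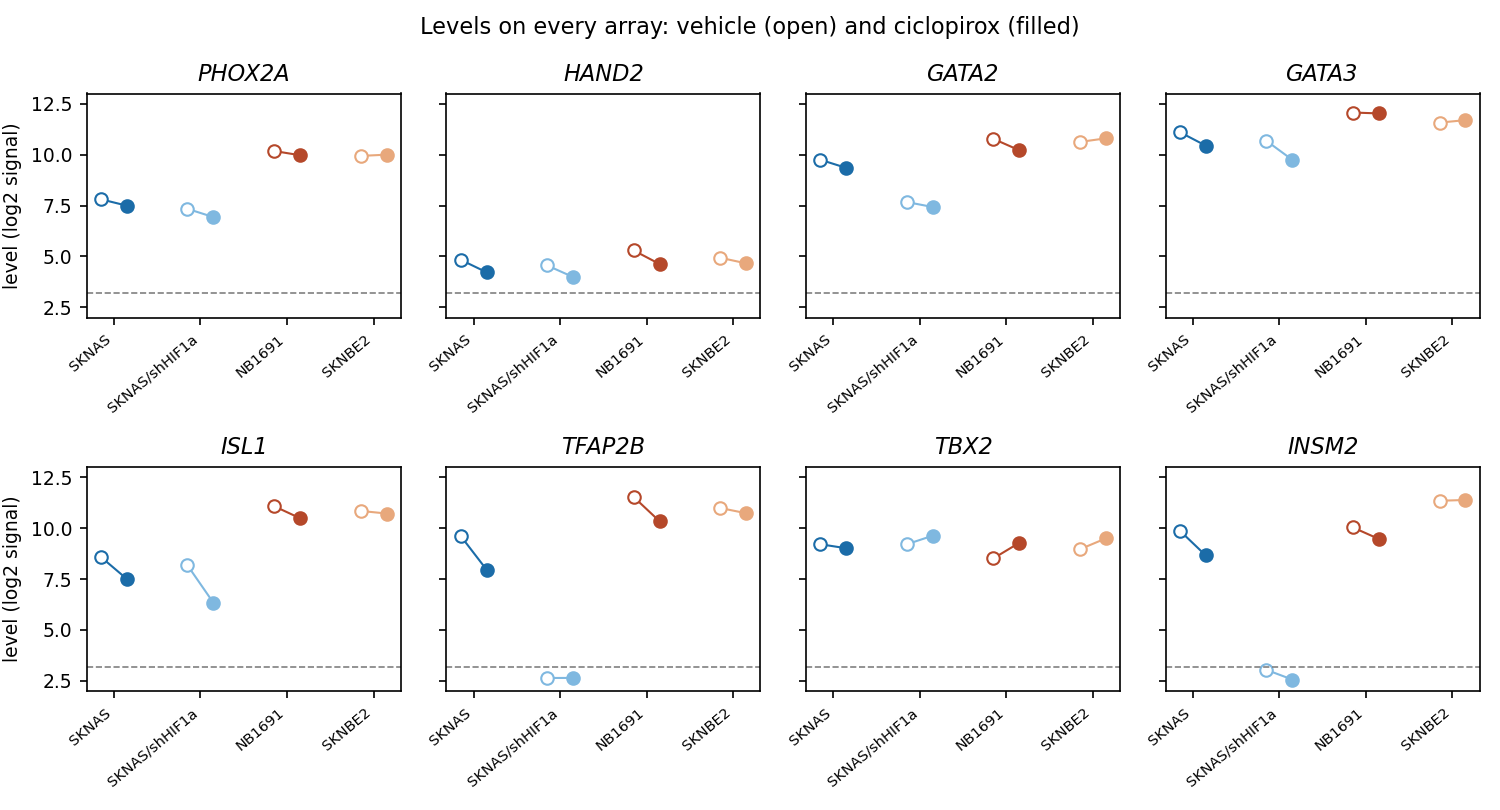
Log2 RMA signal of the 8 genes on each of the 8 arrays, by cell line, with open points for vehicle, filled points for ciclopirox and a dashed line at the testing level of 3.21. TFAP2B and INSM2 lie near the bottom of the scale in SKNAS/shHIF1a, at 2.65 and at 3.04 and 2.57, and PHOX2A and ISL1 are higher on all arrays of NB1691 and SKNBE2 than on the SKNAS-derived arrays.

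Neighbours in the order of line means were compared with limma over all 14517 genes, with the line and the treatment as terms. For PHOX2A the order was NB1691, SKNBE2, SKNAS and the derivative. The step from SKNBE2 to SKNAS was 2.32 ± 0.18 log2 units (SE, 2 arrays per line, limma adjusted p = 0.000474), and the steps on either side of it did not pass the threshold. ISL1 had the same order and its step from SKNBE2 to SKNAS was 2.74 ± 0.40 (limma adjusted p = 0.00438), while NB1691 and SKNBE2 differed by 0.0018. For GATA2 the order was SKNBE2, NB1691, SKNAS and the derivative, and the 2 lower steps passed: 0.94 ± 0.22 from NB1691 to SKNAS (limma adjusted p = 0.0194) and 2.0 ± 0.22 from SKNAS to the derivative. TFAP2B followed NB1691, SKNBE2, SKNAS and the derivative, with a step of 2.07 ± 0.42 from SKNBE2 to SKNAS (limma adjusted p = 0.0146) and one of 6.14 ± 0.42 to the derivative.

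INSM2 was the gene that separated SKNBE2 from NB1691, by 1.61 ± 0.30 log2 units (limma adjusted p = 0.0135), and it did not differ beyond the threshold between NB1691 and SKNAS (0.48 ± 0.30, adjusted p = 0.26). For GATA3, HAND2 and TBX2 no neighbouring lines passed, with the closest at 0.86 ± 0.29 between SKNBE2 and SKNAS for GATA3 (limma adjusted p = 0.0735). Lines further apart in the order did: GATA3 was higher in NB1691 than in SKNAS by 1.27 ± 0.29 (limma adjusted p = 0.0188), and in the derivative it differed by -1.83 from NB1691 (0.00536) and by -1.42 from SKNBE2 (0.0153). HAND2 in the derivative differed by -0.69 ± 0.18 from NB1691 (limma adjusted p = 0.0271), and no pair of lines passed for TBX2. Differences between lines were common across the array: 37.7% of all genes passed between NB1691 and SKNAS, 30.9% between SKNBE2 and SKNAS, 25.1% between SKNBE2 and NB1691, 37.2% between the derivative and NB1691 and 31.1% between the derivative and SKNBE2. Between SKNBE2 and NB1691, 1 of the 8 genes passed.

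Across line means, NB1691 and SKNBE2 were set against SKNAS and SKNAS/shHIF1a, 2 lines a side. PHOX2A was higher in NB1691 and SKNBE2 by 2.63 ± 0.26 log2 units (SE, limma adjusted p = 0.0361) and ISL1 by 3.13 ± 0.34 (adjusted p = 0.0404). These 2 of 8 genes were called higher and none lower, where 3.68% of all genes were called, 1.27% higher and 2.40% lower. GATA3 differed by 1.35 ± 0.31 (limma adjusted p = 0.119), GATA2 by 2.05 ± 0.76 (0.231) and HAND2 by 0.48 ± 0.21 (0.287). TFAP2B and INSM2 had larger differences with larger errors, 5.18 ± 2.25 (limma adjusted p = 0.283) and 4.52 ± 2.44 (0.362), and the 2 SKNAS-derived lines differed from each other in both. Without SKNAS the difference was 8.25 for TFAP2B, 7.75 for INSM2 and 3.05 for GATA2, and without the derivative 2.10, 1.29 and 1.05, none of them called. TBX2 differed by -0.20 ± 0.24 (limma adjusted p = 0.667).

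For 5 of the 8 genes, PHOX2A, GATA2, GATA3, ISL1 and TFAP2B, all 4 arrays of NB1691 and SKNBE2 lay above all 4 SKNAS-derived arrays, which was so for 15.7% of all genes. The median difference of the 8 genes was 2.34, against 0.04 over all genes tested. The 2 SKNAS-derived lines are parent and derivative and are not independent lines. Without SKNAS the adjusted p was 0.212 for PHOX2A and 0.17 for ISL1, and without the derivative 0.238 and 0.21. The ISL1 call was also lost without NB1691 (adjusted p = 0.0549). With vehicle arrays alone the PHOX2A difference was 2.49 (limma adjusted p = 0.0532) and that of ISL1 2.58 (0.0471).

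Related genes were taken from 3 lists, 2 of the noradrenergic programme and 1 of the mesenchymal state. Among 20 further noradrenergic transcription factors on the array, 19 were tested, 2 were called higher in NB1691 and SKNBE2 and none lower, with a median of 0.64. These were HAND1, a paralog of HAND2, at 5.60, and the zinc finger gene ZNF536 at 4.51. Among 20 noradrenergic effector genes 3 were called higher, with a median of 2.83: TH and DBH, which encode enzymes of catecholamine synthesis, at 4.02 and 5.51, and GAP43, a growth cone protein, at 3.36. Among 20 tested mesenchymal state transcription factors 9 were called lower (PRRX1, FOSL1, FOSL2, RUNX2, WWTR1, YAP1, SMAD3, SNAI2 and IRF1) and none higher, with a median of -2.18.

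**Figure D2:**
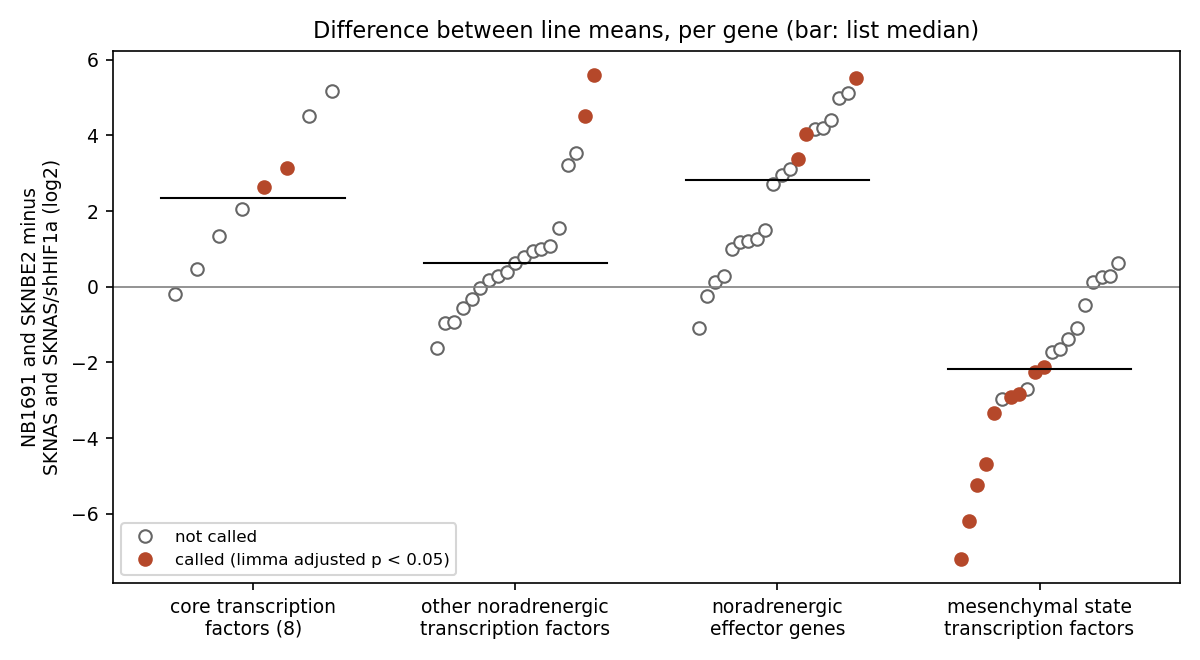
Difference in log2 signal between the line means of NB1691 and SKNBE2 and those of SKNAS and SKNAS/shHIF1a, 1 point per gene tested, for the 8 core genes and 3 other lists, with filled points for genes called by limma and a bar at the median of each list. The medians are 2.34, 0.64 and 2.83 for the core factors, the other noradrenergic factors and the effector genes, and -2.18 for the mesenchymal factors.

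MYCN had vehicle and ciclopirox signals of 12.05 and 11.77 in NB1691, 12.48 and 12.53 in SKNBE2, 2.77 and 3.36 in SKNAS, and 5.41 and 5.65 in the derivative. Thus the derivative, labelled N-Myc, was far below the other N-Myc lines. MYC had vehicle and ciclopirox signals of 10.16 and 9.10 in SKNAS and 9.86 and 9.23 in the derivative. In NB1691 they were 2.70 and 3.28, and in SKNBE2 2.66 and 3.28. Among markers of other cell types, the 7 Schwann cell and glial genes summed to log2 signals of 5.78 to 6.12 over the 8 arrays, and 4 to 6 of the 7 were under the testing level on each array. The 9 lymphoid and myeloid genes summed to 6.47 to 6.89 in NB1691 and SKNBE2, to 10.5 and 11.6 in SKNAS, and to 7.33 and 9.71 in the derivative, with PTPRC, the leukocyte gene for CD45, at 11.53 and 10.42 in SKNAS and 9.57 and 6.34 in the derivative, and 4 or 5 of the 9 were under the testing level on each array. The 8 epithelial genes summed to 6.17 to 6.81 in NB1691 and SKNBE2, 10.4 and 11.0 in SKNAS, and 7.31 and 8.52 in the derivative, with 3 to 6 of the 8 under that level. In SKNAS the keratin gene KRT18 alone had 10.34 and 10.87, while EPCAM had 3.05 and 3.09. The 6 endothelial genes summed to between 5.42 and 8.01, with 3 to 6 of the 6 under the testing level. The highest sum was in the derivative under vehicle, with TEK at 6.78 and EMCN at 6.74. The part of these genes in the line differences was not tested.

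The derivative was compared with its parent across both treatments. HIF1A itself had vehicle and ciclopirox signals of 12.25 and 11.94 in SKNAS and of 11.71 and 11.09 in SKNAS/shHIF1a. It was lower in the derivative under both treatments, with a difference of -0.69 ± 0.21 log2 units (SE, 2 arrays per line, limma adjusted p = 0.257), and did not pass the threshold. In this comparison 230 of 14517 genes were called (1.58%), 0.744% higher and 0.840% lower.

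INSM2, TFAP2B and GATA2 fell in the derivative, 3 of the 8 genes, and none rose. INSM2 differed by -6.83 log2 units under vehicle and -6.09 under ciclopirox, with a fitted difference of -6.46 ± 0.30 (SE, limma adjusted p = 0.00116). TFAP2B differed by -6.98 and -5.31, with a fitted difference of -6.14 ± 0.42 (limma adjusted p = 0.00396). Both genes were under the testing level in the derivative, so the size of these differences depends on the lower end of the array scale.

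GATA2 differed by -2.08 under vehicle and -1.92 under ciclopirox, with a fitted difference of -2.0 ± 0.22 (limma adjusted p = 0.0150). The GATA2 call was lost when any 1 of the 4 SKNAS-derived arrays was left out: the adjusted p was 0.167 without SKNAS vehicle, 0.136 without SKNAS ciclopirox, 0.0734 without derivative vehicle and 0.0707 without derivative ciclopirox. The fitted value then lay between -2.09 and -1.90. INSM2 and TFAP2B passed in each of these fits, with adjusted p up to 0.0272 and 0.0433.

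The other 5 genes did not pass. The fitted difference was -0.52 ± 0.18 for PHOX2A (limma adjusted p = 0.33), -0.79 ± 0.40 for ISL1 (0.551), -0.56 ± 0.29 for GATA3 (0.57), -0.26 ± 0.18 for HAND2 (0.711) and 0.31 ± 0.26 for TBX2 (0.795). ISL1 had a difference of -0.41 under vehicle and -1.17 under ciclopirox. When 1 array was left out the fitted difference ran from -1.41 (without derivative vehicle) to -0.17 (without derivative ciclopirox) for ISL1 and from -0.93 to -0.19, without the same arrays, for GATA3. Of the 8 genes, 7 were below the parent under both treatments, against 32.8% of all genes. A decrease of at least 2-fold under both treatments was seen in 3, against 1.91% of all genes. Both derivative arrays lay below all 6 other arrays for 4 of the 8 genes, against 6.03%.

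**Figure D3:**
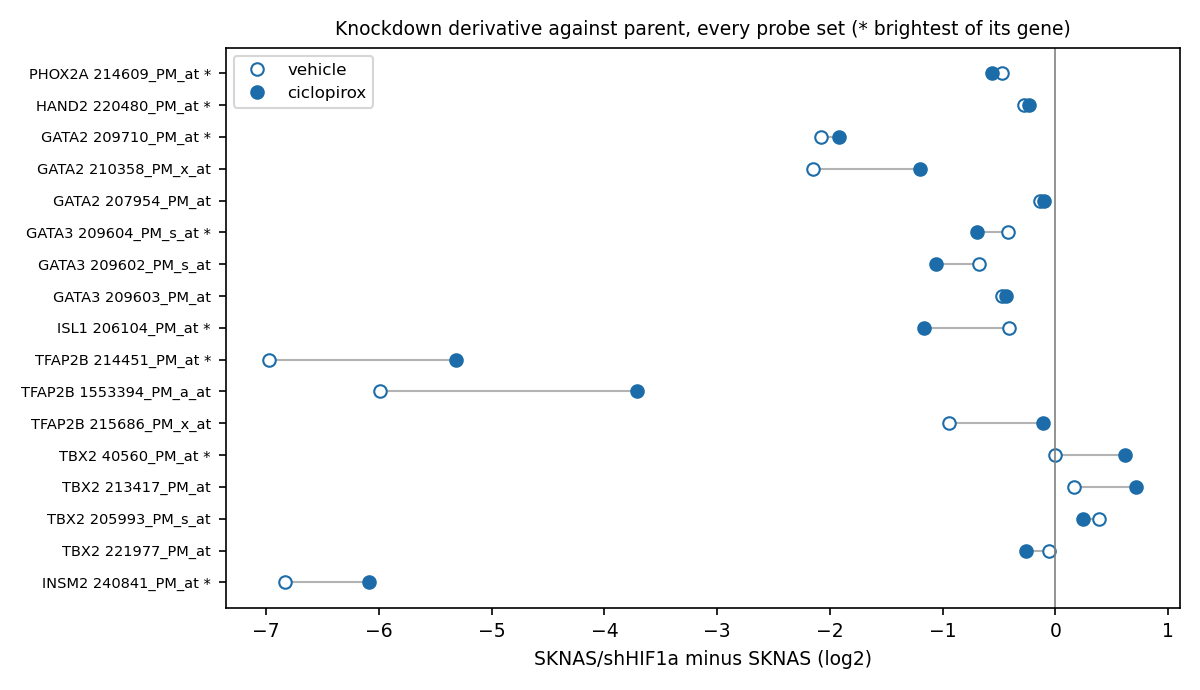
Log2 signal difference between SKNAS/shHIF1a and SKNAS for all 17 probe sets of the 8 genes, with open points for vehicle, filled points for ciclopirox and an asterisk at the probe set with the highest mean of its gene. INSM2, at -6.83 and -6.09, and TFAP2B, at -6.98 and -5.31, lie far below 0, and GATA2 lies at -2.08 and -1.92.

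The other probe sets gave the same direction for the genes called lower where they had signal. A further TFAP2B probe set differed by -5.99 under vehicle and -3.71 under ciclopirox, and the third, a cross-hybridising type with low signal, by -0.95 and -0.11. A further GATA2 probe set, also of the cross-hybridising type, differed by -2.15 under vehicle and -1.2 under ciclopirox, and the third, with a mean signal of 3.55, by -0.14 and -0.10. With the mean of all probe sets of each gene the difference was -3.84 for TFAP2B and -1.26 for GATA2, and both calls were kept.

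Genes within 1 Mb on each side of the 8 genes were checked for the same difference, a check chosen after the values were seen. Around INSM2 13 genes were tested and none was called, with differences from -0.41 to 0.64. Around TFAP2B 2 genes were tested, TFAP2D at -0.16 and FTH1P5 at 0.31, and around GATA2 25 genes with differences from -0.77 to 1.65, none called. Of the 2 genes tested around ISL1, EMB, which encodes the cell adhesion protein embigin, was called lower at -2.78 (limma adjusted p = 0.00662), while ISL1 was not. Around PHOX2A, HAND2, GATA3 and TBX2, 20, 9, 5 and 10 genes were tested and none was called.

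Of the 19 other noradrenergic transcription factors tested, INSM1 was called higher in the derivative and none lower. INSM1, a paralog of INSM2, had vehicle and ciclopirox signals of 5.86 and 4.79 in SKNAS and 8.39 and 7.14 in the derivative, a difference of 2.44 ± 0.21 (limma adjusted p = 0.00662), so that the paralogs differed from the parent in opposite directions. The median of the 19 was 0.01, with 10 above 0. Of the 20 effector genes, the neuropeptide gene NPY and SLC18A1, a vesicular monoamine transporter, were called lower at -7.91 and -1.35 and none higher, while 12 lay above 0 and the median was 0.23. Of the 20 mesenchymal factors, TBX18, a T-box gene, was called lower at -1.17 and none higher, 13 lay below 0 and the median was -0.28. The median of the 8 core genes was -0.68, against -0.01 over all genes. MYCN was called higher by 2.47 ± 0.24 (limma adjusted p = 0.00928). Of the markers of other cell types, KRT18, an epithelial keratin, was called lower and TEK, an endothelial receptor, higher, and PTPRC was not called. The part of these genes in the differences of INSM2, TFAP2B and GATA2 was not tested.

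Ciclopirox was compared with vehicle within each line, with the line as a block. In SKNAS all 8 genes were lower with ciclopirox by their brightest probe set, where 52.8% of all genes were, but the other 3 TBX2 probe sets were not. In NB1691 7 of 8 were lower (52.1% of all genes), in SKNBE2 3 of 8 (51.1%) and in the derivative 6 of 8 (52.8%). The 6 include INSM2, which like TFAP2B lay under the testing level on both derivative arrays, so its change there is not informative. The median change of the 8 genes was -0.64 in SKNAS, -0.56 in NB1691, 0.05 in SKNBE2 and -0.44 in the derivative (TFAP2B and INSM2 included), against -0.02, -0.02, -0.01 and -0.03 over all genes tested.

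ISL1 had the most negative mean change. It changed by -1.08 in SKNAS, -0.59 in NB1691, -0.13 in SKNBE2 and -1.84 in the derivative, a mean of -0.91 ± 0.28 (SE, n = 4 lines, limma adjusted p = 0.21). HAND2, read from a probe set with low signal, had the most even change. It changed by -0.61 in SKNAS, -0.67 in NB1691, -0.28 in SKNBE2 and -0.57 in the derivative. Its mean change was -0.53 ± 0.12 (limma adjusted p = 0.165). ISL1 and HAND2 were the 2 genes below vehicle in all 4 lines, against 16.0% of all genes. With SKNAS and its derivative averaged into 1 line, the mean was -0.73 for ISL1 (limma adjusted p = 0.435) and -0.51 for HAND2 (0.393).

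TFAP2B changed by -1.66 in SKNAS, -1.2 in NB1691, -0.26 in SKNBE2 and 0.0027 in the derivative, where it lay under the testing level. Its mean change was -0.78 ± 0.30 (SE, n = 4 lines, limma adjusted p = 0.263). INSM2 changed by -1.22 in SKNAS, -0.57 in NB1691, 0.04 in SKNBE2 and -0.48 in the derivative, where it too lay under that level, a mean of -0.56 ± 0.21 (limma adjusted p = 0.263). Both genes thus had their most negative change in SKNAS.

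GATA3 changed by -0.66 in SKNAS and -0.94 in the derivative and by -0.04 and 0.12 in NB1691 and SKNBE2, a mean of -0.38 ± 0.21 (SE, n = 4 lines, limma adjusted p = 0.378). Both further GATA3 probe sets showed the same contrast, at -0.87 and -0.97 in SKNAS, -1.25 and -0.93 in the derivative, and between -0.09 and 0.40 in the other lines. GATA2 changed by -0.40, -0.56, 0.18 and -0.24 in SKNAS, NB1691, SKNBE2 and the derivative, a mean of -0.26 ± 0.16 (limma adjusted p = 0.42). Its further probe set of the cross-hybridising type differed, at -0.44, -0.01, 0.09 and 0.51.

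PHOX2A changed by -0.31, -0.21, 0.06 and -0.40 in the same order of lines, a mean of -0.22 ± 0.13 (SE, n = 4 lines, limma adjusted p = 0.416). TBX2 was the gene with a positive mean, at -0.20 in SKNAS, 0.77 in NB1691, 0.53 in SKNBE2 and 0.42 in the derivative, a mean of 0.38 ± 0.18 (limma adjusted p = 0.326). A further TBX2 probe set changed by 0.01, 0.96, 0.43 and 0.56, and the other 2 were also above vehicle in all 4 lines, by 0.21 and 0.34 in SKNAS. The size of the PHOX2A change was at most 0.40. In NB1691 TBX2 was the 1 gene of the 8 above vehicle, while in SKNBE2 PHOX2A, GATA2, GATA3 and INSM2 were above it too.

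**Figure D4:**
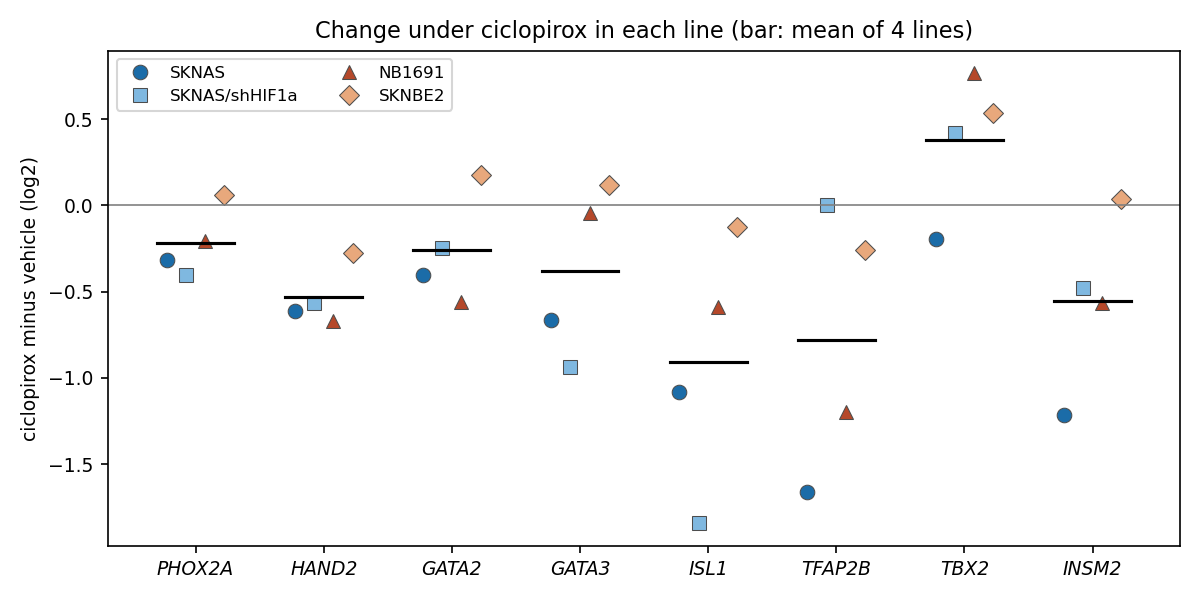
Ciclopirox minus vehicle difference in log2 signal of the 8 genes in each of the 4 cell lines, 1 point per line, with a bar at the mean of the 4 lines. ISL1 and HAND2 lie below 0 in all 4 lines, TBX2 lies above 0 in 3, and the SKNBE2 values stay between -0.28 and 0.53.

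With limma and adjustment over all genes, none of the 8 genes was called for ciclopirox, and none of the 14517 genes was (0%). At an unadjusted p under 0.05, 2599 genes (17.9%) were found, 10.2% lower and 7.67% higher. HAND2, ISL1, TFAP2B and INSM2, 4 of the 8 genes, were among the lower and none among the higher. The tests of TFAP2B and INSM2 include the derivative, where both genes lay under the testing level. Without the derivative their mean changes were -1.04 and -0.58. A decrease of at least 2-fold was seen for ISL1, TFAP2B and INSM2 in SKNAS (1.62% of all genes), for TFAP2B in NB1691 (5.12%), for ISL1 in the derivative (4.31%) and for no member in SKNBE2 (1.25%). The median of the 8 mean changes was -0.46, against -0.01 over all genes. Of the 19 other noradrenergic transcription factors 14 had a mean below 0, with a median of -0.21, and of 20 effector genes 15, with a median of -0.33. Of 20 mesenchymal factors 15 had a mean above 0, with a median of 0.31, and no gene of these lists was called.

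The change under ciclopirox was then compared between NB1691 and SKNBE2 and the SKNAS-derived lines. No difference passed for any of the 8 genes. Those of TFAP2B and INSM2 average in changes of the derivative, where both genes lay under the testing level, and are given as values only. The difference was 1.10 ± 0.35 for ISL1 (SE, 2 lines a side, limma adjusted p = 0.369), 0.84 ± 0.24 for GATA3 (0.336), 0.58 for INSM2, 0.54 for TBX2, 0.29 for PHOX2A, 0.13 for GATA2, 0.12 for HAND2 and 0.10 for TFAP2B. Of all genes, 0.0344% were called, none of them in this direction. At an unadjusted p under 0.05, 11.3% of all genes were found, 4.97% in this direction and 6.35% in the other, and ISL1 and GATA3 were the 2 members among them. Both SKNAS-derived changes lay below both others for 4 of the 8 genes, against 22.5% of all genes. For GATA2, HAND2 and TFAP2B the sign of the difference turned when SKNBE2 was left out, to -0.24, -0.077 and -0.37.

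For each of the 8 genes the 3 genes outside the 8 with the most similar pattern over the 8 arrays were found, by the root-mean-square difference between log2 signals after each gene's mean was subtracted. INSM2 was nearest to GSTP1, a glutathione transferase gene, at 0.51, to BCOR, a transcriptional corepressor, at 1.03, and to CNTN1, a neuronal adhesion protein, at 1.29. TFAP2B was nearest to GSTP1 and BCOR too, at 0.89 and 0.99, followed by TRIM59 at 1.32. TFAP2B and INSM2 differed from each other by 0.73, less than TFAP2B did from any gene outside the 8. Both lay under the testing level on the derivative arrays. There, under vehicle and ciclopirox, GSTP1 had 3.41 and 3.85, BCOR 2.55 and 2.33, TRIM59 2.64 and 2.67, and CNTN1 6.05 and 3.85. The part of these derivative signals in the distances was not tested. PHOX2A was nearest to LYN, a tyrosine kinase gene, at 0.18, then LHFPL4 at 0.20 and SLAIN1 at 0.21. ISL1 was nearest to TIAM1, a Rac exchange factor gene, at 0.30, then MANEAL at 0.32 and LZTS1 at 0.34, and PHOX2A and ISL1 differed by 0.50.

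GATA2 was nearest to MFSD6 at 0.31, ZNF22 at 0.32 and EPHX2 at 0.33. GATA3 was nearest to UNG, the uracil glycosylase gene, at 0.15, then PAFAH1B3 at 0.15 and ZSCAN12 at 0.16. HAND2 was nearest to ZSCAN16 at 0.13, TXNRD3 at 0.14 and IFT81 at 0.14, and TBX2 to COG3 at 0.12, ADGRB2 at 0.12 and PPP1R15B at 0.13. Small distances are easily reached by genes that vary little, such as HAND2 and TBX2, and the 8 arrays share 4 lines.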

How the data were processed

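RNA from 4 lines under vehicle or ciclopirox was measured on 8 Affymetrix PM arrays. The authors deposited log2 values made with RMA, per the submitters' processing notes; the RMA version is not given in the sources used here. Of 54715 probe sets, 102 were controls, 40920 had 1 symbol, 864 had several and 12931 were unnamed here. For each of 19774 genes the probe set with the highest mean was used, and 14517 genes with a mean of at least 3.21 (the 40th percentile) were tested. Precision is limited by the number of arrays.

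limma 3.58.1 in R 4.3.3 was fitted to all genes, with line as a block for ciclopirox (residual df 3, prior df 2.98), and line means were used for line origin (residual df 2). p-values were adjusted by Benjamini-Hochberg with a threshold of 0.05. Treated and untreated arrays of a line deviated together (r = 0.898, 0.867, 0.885 and 0.817 in SKNAS, NB1691, SKNBE2 and SKNAS/shHIF1a), and the pairing comes from the line. The tests were tried on simulated data. Alternatives were other filters, probe set rules, scalings and fits, and leaving out arrays or lines. Every member was named, with its 3 nearest genes by pattern. The members and lists were chosen with earlier results of these data known, so they are not independent evidence. Promoters and gene positions are from RefSeq GRCh38.p14. Tables were handled in Python 3.11.15 with numpy 2.4.6 and pandas 2.3.3.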

Additional observations from a re-analysis of the deposited data

How the results depend on the processing

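With 1 array per line and treatment, effects that vary between lines have little power here. Of 392 single-gene results under alternatives, 374 kept direction and side of the threshold, 11 lost the call and 7 changed sign, all 7 uncalled. The sign changes were the TBX2 knockdown difference at -0.079 without SKNAS ciclopirox (up to 0.69 without another array), the TBX2 line-origin difference at 0.067 with ciclopirox arrays only, and 5 differences in response by line origin: TFAP2B at -0.39 with the mean of probe sets, -0.73 without SKNAS and -0.37 without SKNBE2, and HAND2 and GATA2 at -0.077 and -0.24 without SKNBE2. Without another line these 3 reached up to 0.93 (TFAP2B), 0.31 (HAND2) and 0.50 (GATA2). The cause was not tested.

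INSM2 and TFAP2B stayed called lower in the derivative in all 12 alternatives, and leaving out 1 array left 2 members called. Over all genes that comparison called 198 higher and 195 lower with the 4 SKNAS-derived arrays alone, and 8 to 88 higher and 15 to 74 lower without 1 array. For line origin 1 member was called with no filter (ISL1 adjusted p 0.0507), 1 with vehicle arrays only, and 0 to 2 without 1 line. Over all genes it called 297 higher and 594 lower with each probe set alone, 90 and 153 with vehicle arrays only, and 0 to 1227 and 0 to 1125 without 1 line. The response difference called 1 higher and 8 lower genes with the mean of probe sets, 2 lower with each probe set alone, 1 higher with an intensity trend and 0 without 1 line. Ciclopirox called 0 genes in all 13 alternatives, the fit with no replicate block included.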

Other observations

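HAND2-AS1, an RNA gene that overlaps HAND2 on the opposite strand, had vehicle and ciclopirox signals of 10.05 and 9.45 in SKNAS, 11.80 and 10.92 in NB1691, 10.19 and 10.84 in SKNBE2, and 9.88 and 8.65 in SKNAS/shHIF1a. It was lower with ciclopirox in 3 of 4 lines, while HAND2 was lower in all 4. Whether the probe sets separate the strands was not tested, and the gene was chosen after its values were seen.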
